A study of Mus musculus with 4 samples.

Results

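The 10 genes described here encode the core of the actin machinery of a motile cell: the actin monomer binders Tmsb4x and Tmsb10 (thymosins beta 4 and beta 10), the cytoplasmic actins Actb and Actg1, profilin 1 (Pfn1), cofilin 1 (Cfl1), the Arp2/3 complex subunits Arpc1b, Arpc2 and Arpc3, and coronin 1A (Coro1a). They were taken by name from the deposited gene tables, which hold 23337 gene names per library, and all 10 were found on 1 row of each table. RNA was sequenced from cells labelled as liver-resident macrophages, called Kupffer cells, that had been separated by yellow fluorescent protein (YFP) from Lyz2cre-RosaYFP mice of both sexes aged 6 to 8 weeks. In these animals Cre recombinase is made from the Lyz2 (lysozyme) promoter, which is active in macrophages, monocytes and neutrophils, and permanently switches on YFP from the Rosa locus, so that both groups carry the same alleles and differ in whether a cell, or an ancestor of it, had recombined the reporter. There were 4 libraries: 2 of YFP+ cells and 2 of YFP- cells. Their names start with M or FM, once in each group, and the labels do not say what M and FM stand for. The labels also do not say how many animals stand behind a library or whether libraries came from separate animals. Any p-value thus rests only on spread between these libraries, which may be technical. In tests of the deposited values that spread was a trend over all genes by level, not that of the single gene. Levels are given as TPM (transcript abundance), a value per transcript length that sums to 1000000 in every library.

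Actin exists as monomers and as filaments, and a macrophage moves, engulfs particles and patrols a vessel wall by adding monomers at one filament end and removing them at the other. Thymosins beta hold monomers in reserve, profilin hands them to growing ends, cofilin severs old filaments, the Arp2/3 complex starts side branches, and coronins act on those branches and on cofilin. In the liver, Kupffer cells sit inside the sinusoids and use this machinery to take up particles from blood.

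Promoter windows were available from RefSeq (GRCm38.p6) for 9 of the 10 genes, and Actb had none in that table. The 250 bases before the start site are shown for 4 genes: Tmsb4x and Pfn1, which stood furthest above the YFP- libraries in YFP+ libraries, Actg1, which held a serum response factor motif, and Coro1a, the gene whose YFP+ values both lay below its YFP- values. Capitals mark motif matches on either strand, read 5′ to 3′ toward the gene, and overlapping matches run together. All 4 genes lie on the minus strand, and each line ends at the base before the start site.
Tmsb4x: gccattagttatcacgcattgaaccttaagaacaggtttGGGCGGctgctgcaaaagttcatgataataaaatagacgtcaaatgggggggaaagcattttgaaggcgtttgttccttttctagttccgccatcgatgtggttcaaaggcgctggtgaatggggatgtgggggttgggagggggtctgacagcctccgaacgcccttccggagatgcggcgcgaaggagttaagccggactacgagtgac
Pfn1: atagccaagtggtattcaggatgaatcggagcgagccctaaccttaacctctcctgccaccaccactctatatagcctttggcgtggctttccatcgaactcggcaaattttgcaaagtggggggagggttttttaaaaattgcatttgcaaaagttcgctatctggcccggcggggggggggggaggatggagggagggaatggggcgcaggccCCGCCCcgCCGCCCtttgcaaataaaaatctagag
Actg1: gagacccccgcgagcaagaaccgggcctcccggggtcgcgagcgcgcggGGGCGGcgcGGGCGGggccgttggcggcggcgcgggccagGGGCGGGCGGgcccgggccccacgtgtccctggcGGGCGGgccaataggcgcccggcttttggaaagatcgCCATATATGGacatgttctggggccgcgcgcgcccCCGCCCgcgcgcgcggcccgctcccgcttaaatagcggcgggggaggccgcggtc
Coro1a: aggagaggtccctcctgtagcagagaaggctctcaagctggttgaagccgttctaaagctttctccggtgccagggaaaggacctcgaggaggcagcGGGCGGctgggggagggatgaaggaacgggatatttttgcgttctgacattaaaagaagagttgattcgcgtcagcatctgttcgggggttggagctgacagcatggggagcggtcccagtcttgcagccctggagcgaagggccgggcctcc
These stretches lie at chrX:167209219-167209468, chr11:70654651-70654900, chr11:120348496-120348745 and chr7:126704817-126705066. Motifs were searched on both strands in the whole 300-base window, which adds 50 bases after the start, and matches of different motifs did not overlap, while 2 GGGCGG matches overlapped in the Actg1 and in the Cfl1 window. GGGCGG, the core of the GC box, was in 9 of 9 windows, against 35.7% of 32851 RefSeq windows and 60.9% of the 11186 windows of genes tested here. The CArG box, bound by serum response factor, was in 1 of 9 windows, that of Actg1 at 90 bases before the start, against 1.63% of all windows and 1.36% of those of tested genes. GAGGAA, a core bound by the myeloid factor PU.1, was in the Arpc1b window alone, against 28.3% and 27.4%. TATAAA was in 0 of the 9, against 13.6% and 7.55%. Among the 9 genes with a window, those that stood higher in YFP+ libraries and the one that stood lower shared the GC box match.

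The label of the cells was checked against marker genes before any comparison. Macrophage markers (6 genes) summed to 17225 and 21412 TPM in YFP+ libraries and to 11023 and 16873 TPM in YFP- libraries. C1qa and Cd68 were higher on average in YFP+ libraries, with C1qa at 10472 and 16699 against 4607 and 4877 TPM, and the other 4, among them Csf1r and Mertk, were lower. The 6 Kupffer cell markers summed to 31449 and 28679 TPM against 5117 and 11085 TPM, with 6 of 6 higher in YFP+ libraries. Markers of microglia, the macrophages of the brain, summed to 1006 and 74.7 TPM in YFP+ libraries and to 17388 and 16077 TPM in YFP- libraries, with 9 of 9 lower in both YFP+ libraries, and oligodendrocyte markers followed (6 of 6 lower on average, 105 and 27.1 against 739 and 846 TPM, Mog at 0 in both YFP+ libraries). Both groups thus carried macrophage and Kupffer cell markers, but in both YFP- libraries the microglia markers summed higher than the Kupffer cell markers, which goes against the liver label. Groups are therefore named here by the YFP label alone, and every difference between them is one between libraries so labelled. Every measured marker of astrocytes (5), endothelium (6), T and NK cells (4), B cells (4) and platelets (4) was also lower on average in YFP+ libraries. Neutrophil markers summed to 1230 and 6535 TPM in YFP+ and to 1675 and 2825 TPM in YFP- libraries, with S100a8 and S100a9 higher on average in YFP+ libraries and Retnlg and Csf3r lower. The number of genes at 1 TPM or more was 10302 and 7386 in YFP+ and 12434 and 12829 in YFP- libraries. Read counts are not known, so no counting error can be given. In whole-population RNA such as this, fewer cells of a type and less RNA per cell cannot be told apart.

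Together the 10 genes made up 4.43% and 5.05% of all TPM in the YFP+ M and FM libraries, and 2.75% and 2.18% in the YFP- M and FM libraries. Tmsb4x alone was 2.65% and 3.004% against 1.51% and 0.641%. The other 9 together were closer, at 1.78% and 2.05% against 1.23% and 1.54%. The 10 genes were selected on their TPM in YFP+ and YFP- libraries and on their shared role, so these values and the differences below are a description and carry no test. With 2 libraries against 2, an exact two-sided permutation test of a single value could not go below p = 0.333.

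**Figure D1:**
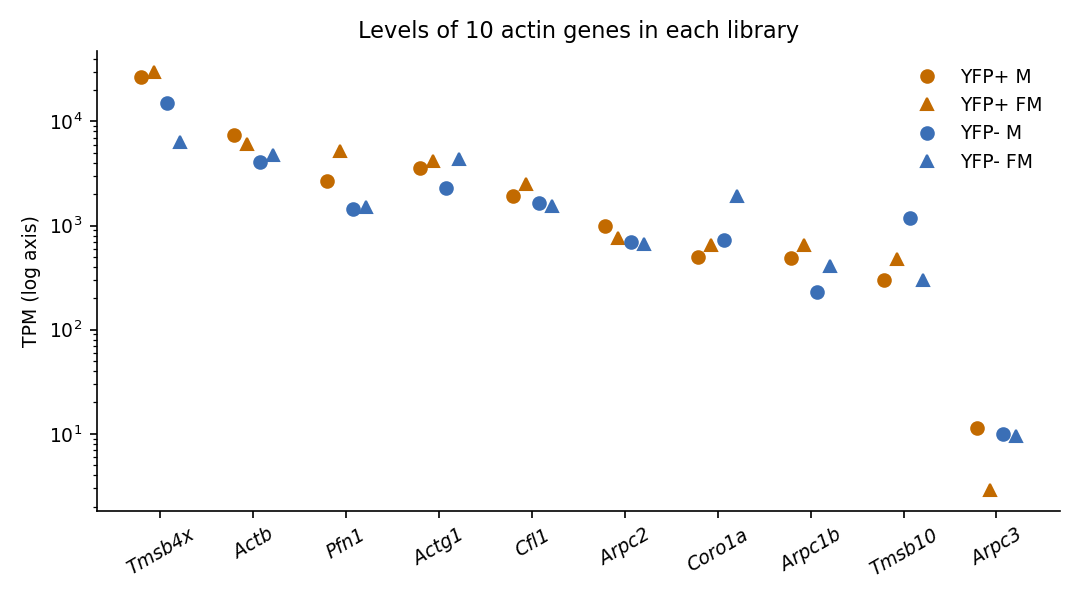
TPM of each of the 10 genes in the 4 libraries on a log axis, with orange for YFP+, blue for YFP-, circles for M and triangles for FM libraries. Tmsb4x lies above all others in every library and Arpc3 below all others, between 2.90 and 11.4 TPM.

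Among the monomer binders, Tmsb4x (chromosome X, 167207094 to 167209218, minus strand, GRCm38) was at 26454 and 30037 TPM in the YFP+ M and FM libraries and at 15146 and 6406 TPM in the YFP- M and FM libraries. It was the most abundant of all genes in both YFP+ libraries, and ranked 2 and 6 in the YFP- M and FM libraries. Both YFP+ libraries lay above both YFP- libraries, at a mean of 28245 ± 2533 against 10776 ± 6180.5 TPM (SD, n = 2 each), 2.62-fold. The difference on the log2(TPM + 1) scale was 0.80 between M libraries and 2.23 between FM libraries.

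Tmsb10 (chromosome 6, 72957347 to 72958748, minus strand), which binds monomers in the same way, did not follow its relative. It was at 298 and 476 TPM in YFP+ M and FM, and at 1186 and 303 TPM in YFP- M and FM. The groups overlapped, since the YFP- M library alone was high. The M libraries differed by -1.99 and the FM libraries by 0.65 on the log2 scale, and without the YFP- M library the fitted difference turned from -0.67 to 0.31. Its coding sequence matches 6 pseudogenes and the coding gene Gm9844 at 90% identity or more, so a part of its reads is uncertain. Mean coverage per unit of FPKM (fragments per kilobase, scaled to depth) was 0.602 to 0.603 of the value for Actb at Tmsb10 in every library, the same factor in each library.

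The cytoplasmic actins were the next most abundant. Actb (chromosome 5, 142903116 to 142906724, minus strand), beta actin, was at 7353 and 6076 TPM in YFP+ M and FM and at 4067 and 4706 TPM in YFP- M and FM. The groups did not overlap (6715 ± 903 against 4386 ± 452 TPM, SD, n = 2 each, 1.53-fold), and the log2 difference was 0.85 in M and 0.37 in FM libraries. Actg1 (chromosome 11, 120345690 to 120348484, minus strand), gamma actin, was at 3549 and 4173 TPM against 2313 and 4311 TPM in the same order. Its groups overlapped: the YFP- FM library was the highest of the 4 and the YFP- M library the lowest. Without the YFP- M library its fitted difference turned from 0.29 to -0.16. The coding sequences of Actb and Actg1 match each other at 90% identity or more. In GENCODE M21, 12 pseudogenes match Actg1 so closely, 9 of them over at least 80% of its length. Actb also matches 1 pseudogene, over at least 80% of its length, and the coding gene Lrrc58. How reads were split between these copies is uncertain.

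Pfn1 (chromosome 11, 70651847 to 70654650, minus strand), profilin 1, was at 2705 and 5213 TPM in YFP+ M and FM and at 1441 and 1508 TPM in YFP- M and FM. The YFP- libraries were close together and both YFP+ libraries lay above them, at 3959 ± 1774 against 1474 ± 47.3 TPM (SD, n = 2 each), 2.69-fold. Cfl1 (chromosome 19, 5490455 to 5494031, plus strand), cofilin 1, was at 1931 and 2509 TPM against 1651 and 1533 TPM. Its groups did not overlap either, but the distance was smaller, 1.39-fold, with a log2 difference of 0.23 in M and 0.71 in FM libraries. Sequence matches to 4 pseudogenes, none over 80% of the coding length, and to Snx32 make a part of its reads uncertain.

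Of the 3 Arp2/3 subunits, Arpc1b (chromosome 5, 145114256 to 145128186, plus strand), the form of its subunit that prevails over Arpc1a in blood cells, was at 487 and 653 TPM in YFP+ M and FM and at 229.6 and 406 TPM in YFP- M and FM. Both YFP+ libraries lay above both YFP- libraries (1.79-fold between the means), with a log2 difference of 1.08 in M and 0.68 in FM libraries. Arpc2 (chromosome 1, 74236550 to 74268213, plus strand), which contacts the mother filament, was at 999 and 752 TPM against 692 and 658 TPM, 1.30-fold and without overlap. Pseudogene matches (2 for Arpc1b, 1 of them over 80% of the coding length, and 1 for Arpc2) make a part of their reads uncertain. Arpc3 (chromosome 5, 122391928 to 122406178, plus strand), a small subunit, was at 11.4 and 2.90 TPM against 10.01 and 9.62 TPM. It overlapped between groups, since the YFP+ FM library alone was low, and without that library its fitted difference turned from -0.64 to 0.20. In an assembled complex the subunits are present in equal number, yet Arpc2 exceeded Arpc3 87.6-fold and 259-fold in the YFP+ M and FM libraries and 69.1-fold and 68.4-fold in YFP- M and FM. Mean coverage of Arpc3 was 36.9 and 6.11 in YFP+ and 54.5 and 10.8 in YFP- libraries in that order, so it was above 0 in every library. The annotation and abundance program are not known, and whether the gene model or the assignment of reads sets this low level, and with it the ratio to Arpc2, was not tested.

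Coro1a (chromosome 7, 126699774 to 126704754, minus strand), the coronin of blood cells, went the other way. It was at 499.8 and 644 TPM in YFP+ M and FM and at 734 and 1925 TPM in YFP- M and FM. Both YFP+ libraries lay below both YFP- libraries, at 572 ± 102 against 1330 ± 843 TPM (SD, n = 2 each). On the log2 scale the difference was -0.55 in M and -1.58 in FM libraries, and the YFP- FM library was far above the other 3.

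In order of level, YFP+ libraries ran from Tmsb4x over Actb, then Pfn1 and Actg1, Cfl1, Arpc2, then Coro1a and Arpc1b, to Tmsb10 and Arpc3. The neighbours whose ranges overlapped there were Pfn1 with Actg1 and Coro1a with Arpc1b. In YFP- libraries Tmsb4x led again, followed by Actb and Actg1, whose ranges overlapped, and by Cfl1 and Pfn1. The ranges of Coro1a (734 to 1925 TPM) and Tmsb10 (303 to 1186 TPM) were wide there and overlapped each other, and Coro1a also covered the levels of Cfl1 and Pfn1.

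Across the 10 genes, 6 stood higher in both YFP+ libraries than in both YFP- libraries and 1 stood lower, while 3 overlapped. Over the 12251 genes tested (at least 1 TPM in at least 2 libraries), 2.50% stood higher without overlap and 79.7% stood lower without overlap; the choice of the 10 genes used these values, so nothing is read from the contrast. The median log2 difference was 0.41 for the 10 genes (0.57 in M and 0.51 in FM libraries), and -1.73 for all tested genes (-1.01 in M and -2.48 in FM libraries). All 10 genes lay above that median in the deposited values. The plot of log2 differences shows both library pairs for each gene.

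**Figure D2:**
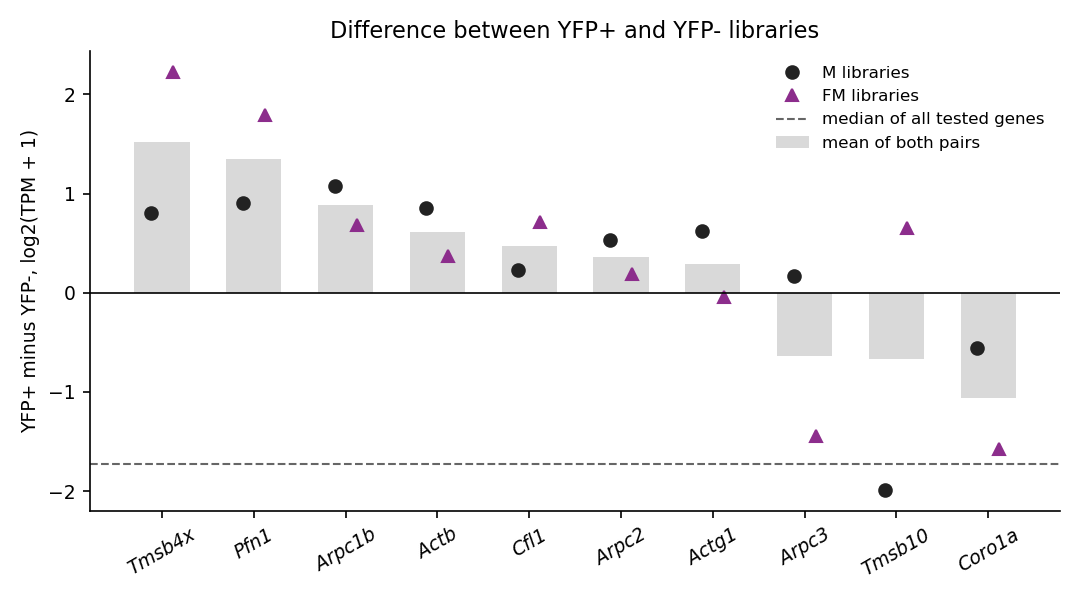
Log2 difference between YFP+ and YFP- libraries for each of the 10 genes, with circles for M libraries, triangles for FM libraries and bars from 0 for the mean of both. Tmsb4x and Pfn1 have the highest means, 1.52 and 1.35, Coro1a the lowest, -1.07, and the dashed line is the median of all tested genes, -1.73.

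The direction of several of these differences depended on how libraries were scaled to each other. Quantile normalization moved the median of all genes from -1.73 to -0.032, median-ratio scaling to -0.082 and cyclic loess to -0.0088. Pfn1, Arpc1b and Arpc2 stood higher in YFP+ libraries in the deposited TPM and under each of these scalings, with Pfn1 at 0.67, 3.65 and 0.44, Arpc1b at 1.16, 3.18 and 0.99, and Arpc2 at 0.29, 2.66 and 0.12 in that order. Tmsb4x was higher under quantile normalization (0.96) and median-ratio scaling (3.82) and lower under loess (-0.55). Actb, Actg1 and Cfl1 were higher under median-ratio scaling and lower under the other two scalings, at -0.25, -0.30 and -0.24 under quantile normalization. Coro1a was lower in the deposited TPM (-1.07), under quantile normalization (-1.46) and under loess (-1.35), and higher under median-ratio scaling (1.23). Of the 10 genes, 10 lay above the median of all genes in the deposited values and under median-ratio scaling, 5 under quantile normalization and 4 under loess.

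The difference between groups followed the level of a gene across the whole table, and 9 of the 10 genes had a mean of 200 TPM or more, Arpc3 being the exception. Classes of level were drawn after the data had been seen. Genes other than the 10 with a mean of 1 to 10 TPM had a median log2 difference of -1.75 (5109 genes), those of 10 to 50 TPM -2.00, those of 50 to 200 TPM -1.41, those of 200 to 1000 TPM -0.22 (407 genes), and those of 1000 TPM or more 0.85 (163 genes, 85.3% above 0). Tmsb4x (1.52) and Pfn1 (1.35) lay above the median of the top class, and Actb (0.61), Cfl1 (0.47) and Actg1 (0.29) below it. Among genes of 200 to 1000 TPM, Arpc1b (0.88) and Arpc2 (0.36) lay above the class median and Tmsb10 (-0.67) and Coro1a (-1.07) below it. Arpc3 (-0.64) lay above the median of its class, 1 to 10 TPM.

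**Figure D3:**
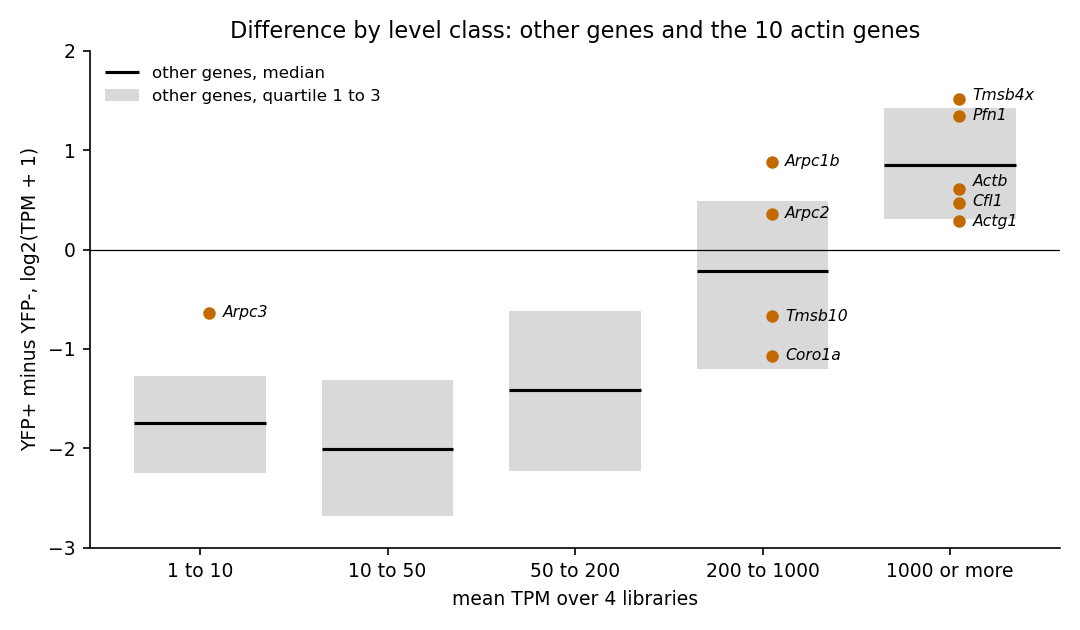
Log2 difference between YFP+ and YFP- libraries by class of mean TPM, with grey boxes from the first to the third quartile and black lines at the median of genes other than the 10, and orange points for the 10 genes. The class median goes from -1.75 at 1 to 10 TPM to 0.85 at 1000 TPM or more, and Tmsb4x is the one gene of its class here above the third quartile.

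Transcript length moved with the difference as well. Among genes of 200 TPM or more, the median log2 difference was 0.75 for transcripts under 750 bases (139 genes), 0.17 for 750 to 1500 bases (212 genes), -0.74 for 1500 to 3000 bases (149 genes) and -0.68 for longer ones (33 genes). Lengths were GENCODE medians and known for 88.2% of tested genes. The 10 genes had median transcript lengths from 596.5 bases (Tmsb10) to 1358.5 bases (Arpc2), with Tmsb4x at 768 and Pfn1 at 734.5 bases. The part that level, length and the marker sums of other cells have in the differences of the 10 genes was not tested.

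Ratios of 2 genes within a library do not change with a factor common to that library, and 11 were computed after the values had been seen. Tmsb4x exceeded Tmsb10 88.6-fold and 63.1-fold in the YFP+ M and FM libraries and 12.8-fold and 21.1-fold in the YFP- M and FM libraries. Actb exceeded Actg1 2.07-fold and 1.46-fold against 1.76-fold and 1.09-fold, and here the groups overlapped. The 2 thymosins together were 2.45 and 2.98 times the 2 actins in YFP+ libraries and 2.56 and 0.744 times in YFP- M and FM, so that the YFP- FM library alone was low.

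Within the Arp2/3 complex, the ratio of Arpc1b to its alternative Arpc1a was 5.69 and 22.1 in YFP+ M and FM and 1.26 and 2.94 in YFP- M and FM. Arpc1a itself was at 85.5 and 29.5 TPM against 182 and 138 TPM. A like pattern held for Rac2, the Rac GTPase of blood cells, over the widely made Rac1, with 9.47 and 32.7 against 1.35 and 2.06. The ratio of Coro1a to Coro1b, a coronin made in most cells, was 0.737 and 0.978 in YFP+ and 1.97 and 1.95 in YFP- libraries, so Coro1a was the more abundant of the pair in both YFP- libraries and the less abundant in both YFP+ libraries. Cfl1 stood to Pfn1 at 0.714 and 0.481 against 1.15 and 1.02. Beta actin exceeded the smooth muscle actin Acta2 2312-fold and 10881-fold in YFP+ and 73.6-fold and 64.0-fold in YFP- libraries. Of the 11 ratios 3 overlapped between groups (Actb to Actg1, Tmsb4x to Actb and the thymosins to the actins), and none carries a test.

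**Figure D4:**
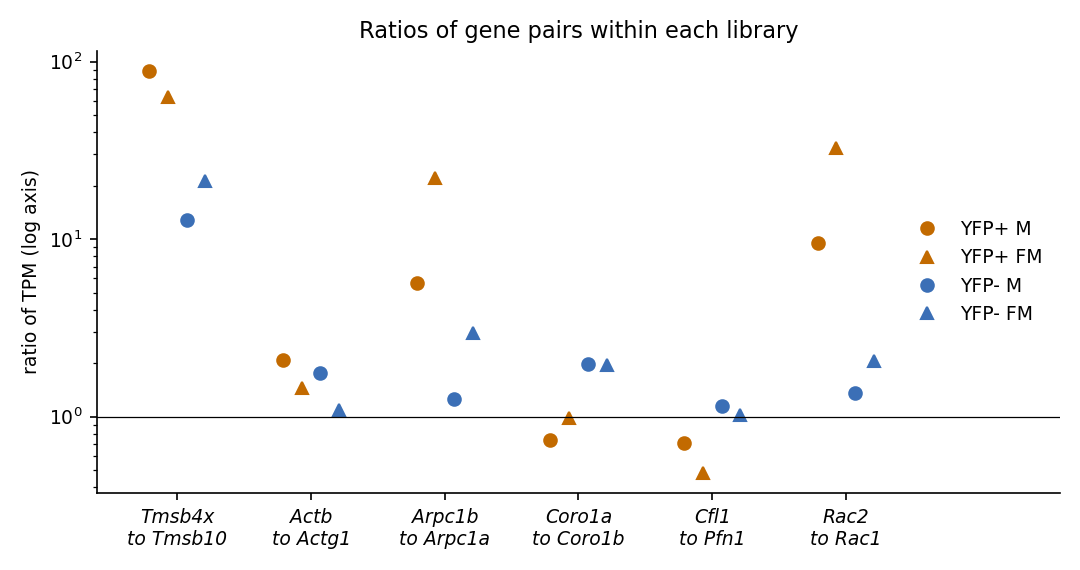
Ratio of the TPM of 2 genes within each library on a log axis, orange for YFP+, blue for YFP-, circles for M and triangles for FM, with a line at equal levels. Tmsb4x to Tmsb10, Arpc1b to Arpc1a and Rac2 to Rac1 lie higher in both YFP+ libraries, and Coro1a to Coro1b and Cfl1 to Pfn1 lie lower.

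The genes nearest to the shared pattern of the 10 were sought among 1055 other genes with a mean of at least 100 TPM, by the root mean square distance between log2(TPM + 1) profiles over the 4 libraries, each centred on its own mean. The nearest were Ap2s1 (distance 0.061), a subunit of a clathrin adaptor, Zfp36 (0.087), an RNA-binding protein that shortens the life of cytokine messages, Ptma (0.092), Serf2 (0.096) and Ctsz (0.105), a lysosomal cathepsin. Ap2s1 was at 176 and 169 TPM in YFP+ M and FM and at 136 and 130.2 TPM in YFP- M and FM. The 10 genes themselves lay further from their own mean pattern, from 0.13 (Cfl1) and 0.18 (Arpc2) to 0.85 (Coro1a) and 0.87 (Tmsb10).

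The contrast between libraries whose names start with M and with FM was not used to choose the genes and was tested with limma (log2(TPM + 1), all 12251 genes, YFP group in the model, Benjamini-Hochberg adjustment). Of all tested genes, 6 passed an adjusted p of 0.05, which is 0.0490%, and 0 of the 10 did. The smallest adjusted p among the 10 was 0.9998, and 0 had an unadjusted p under 0.05. M minus FM differences ran from -0.88 (Coro1a, SE 0.95, 617 against 1285 TPM) to 0.86 (Arpc3, SE 1.58, 10.7 against 6.26 TPM). Tmsb4x differed by 0.53 (SE 0.70). With standard errors of this size, these values do not show that the M and FM libraries were alike.

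Other genes of the actin network were drawn from 13 lists of 140 genes, all of them named in the files, and 122 could be tested between YFP+ and YFP- libraries. By limma at an adjusted p of 0.05, 0 rose and 51 fell in YFP+ libraries, and 0 of those above 0 had an unadjusted p under 0.05. Of all genes tested, 0.522% rose and 39.5% fell, so the share that fell in the network, 41.8%, is near the background. The median log2 difference of the network was -1.74, against -1.73 for all tested genes. Differences above 0 were found for 15 of the 122 and for 6.53% of all tested genes. They were also found for 7 of the 10 genes, which were selected on these values. Of the 122, 98 had a mean under 200 TPM over the 4 libraries, as against 1 of the 10 genes, and the part of level in this was not tested.

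These calls rested on single libraries and on scaling. Without the YFP+ M library 71 network genes fell, without the YFP+ FM library 14, without the YFP- M library 1 and without the YFP- FM library 0. Over all genes, calls split into 64 higher and 4834 lower in the deposited values, 148 and 205 under quantile normalization, 689 and 723 under median-ratio scaling, and 65 and 40 under loess. In the network, 2 genes fell in the deposited values and under all 3 scalings: Fscn1 and Acta2. Median-ratio scaling called 8 network genes higher, among them Actn1 (2.98) and Vasp (2.78), named here after their values were seen. Of the 51 genes that fell, 44 were below 0 under every scaling, and of those named below Tmsb15l was the exception.

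**Figure D5:**
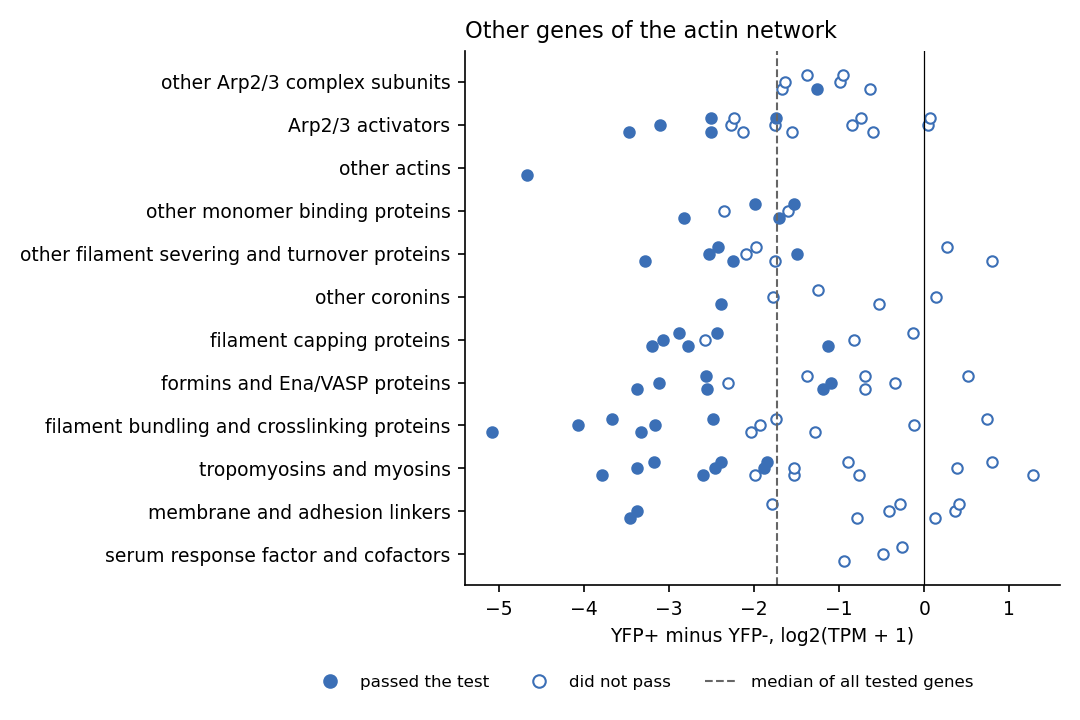
Log2 difference between YFP+ and YFP- libraries for the tested network genes of 12 of the 13 lists, filled where the gene passed an adjusted p of 0.05 (limma) and open where it did not, with a dashed line at the median of all tested genes. No filled point lies above 0, and Fscn1 (-5.08) and Acta2 (-4.66) lie lowest.

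Among the other subunits of the Arp2/3 complex, 1 of 7 fell. That was Actr3b, an alternative form of Arp3, at 0.211 and 0 TPM in YFP+ and 1.69 and 1.56 TPM in YFP- libraries (log2 difference -1.25, SE 0.32, limma adjusted p = 0.00130), close to the filter on low values. Actr2 (Arp2) had a difference of -0.96 and Actr3 (Arp3) of -0.99, neither past the test. Actr3 was at 317 and 149 TPM in YFP+ M and FM and at 252 and 744 TPM in YFP- M and FM, so the groups overlapped. Arpc1a (-1.64), Arpc4 (-1.38), Arpc5 (-0.64) and Arpc5l (-1.67) did not pass either. Arpc4 was low in the YFP+ FM library alone, at 18.5 TPM against 153 to 198 TPM in the other 3. Across the complex, Arpc1b and Arpc2 had differences above 0 in the deposited values and the other subunits below it. Median-ratio scaling put all but Actr3b above 0. Quantile normalization and loess put Actr2 and Arpc3 above 0, and quantile normalization also Arpc5 (0.045).

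Of 15 activators of the complex, 5 fell and 2 were above 0. The WAVE complex subunits Nckap1 (1.04 and 0.0421 against 15.8 and 14.5 TPM, -3.47, limma adjusted p = 0.00179) and Cyfip1 (-3.10) fell, and so did Nckap1l (-2.50), the form of Nckap1 found in blood cells. Brk1, listed in the files under an older name, was the most abundant activator, at 254 and 142 against 380 and 268 TPM, and did not pass (-0.74). Was, the Wiskott-Aldrich protein of blood cells, had a difference of 0.044. It is named here, like Hcls1 (0.063), because these were the 2 activators above 0.

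Among the other monomer binders 4 of 6 fell, among them Cap1 (-2.83), the cyclase-associated protein that recharges monomers, and Tmsb15l (-1.70), whose difference turned to 0.069 under quantile normalization. Twf2, twinfilin 2, was at 87.2 and 57.3 against 177 and 266 TPM and did not pass (-1.60). Of the other actins, 1 of 4 could be tested, Acta2, which fell from 55.2 and 73.5 TPM in YFP- M and FM to 3.18 and 0.558 TPM in YFP+ M and FM (-4.66, SE 1.14, limma adjusted p = 0.000864). Smooth muscle, pericyte and stellate cell markers, which include Acta2, Tagln and Myh11, were lower as a list in YFP+ libraries. That held for 6 of 6, as for most tested genes, with sums of 8.51 and 1.92 against 100.2 and 118 TPM. Rgs5 and Lrat were at 0 in some library. The part of these markers in these falls was not tested.

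Of 10 other genes of filament turnover 5 fell, with Cfl2, the muscle cofilin, at 1.12 and 0.123 against 7.73 and 5.13 TPM (-2.24), Gmfb at -3.28 and Svil at -2.43. Cotl1, coactosin-like protein and the most abundant of the list, stood higher in both YFP+ libraries, at 700 and 927 against 335 and 642 TPM, and did not pass (0.79, SE 0.78, limma adjusted p = 0.376). It had a difference above 0 under each scaling (0.84, 3.09 and 0.68). Of 5 other coronins, Coro2b fell (-2.39), and Coro1b was at 679 and 659 against 373 and 987 TPM, with overlap.

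Of 9 capping genes 6 fell, among them Capza1 (42.8 and 12.8 against 147 and 287 TPM, -3.07), Eps8 (-2.78) and Add1 (-2.88). Capzb, which pairs with the Capza proteins in one heterodimer, differed by -0.13 with overlapping groups (639 and 377 against 508 and 571 TPM). Of 12 genes listed with the formins and Ena/VASP proteins 6 fell, among them Diaph2 (-2.57) and Fmnl3 (-3.11). The 6 include Spire1 (-3.38), which is of neither family, while Evl did not pass (-0.70).

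Bundling and crosslinking genes held the gene with the lowest difference of the network. Fscn1, fascin, which bundles the filaments of filopodia, was at 15.2 and 3.08 TPM in YFP+ M and FM and at 193 and 388 TPM in YFP- M and FM (-5.08, SE 1.02, limma adjusted p = 0.000146). It was -3.76, -2.93 and -3.57 under the 3 scalings. Of the 12 tested, 6 fell, including Pls3 (-4.07), Tagln (-3.33) and Lcp1 (-2.48), the plastin of blood cells, at 303 and 53.3 against 428 and 1194 TPM. Microglia markers were 9 of 9 lower in YFP+ libraries, as given above beside the share of all tested genes. The part of these markers in these falls was not tested.

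Of 16 tropomyosins and myosins 8 fell, with Tpm4 at 39.8 and 12.4 against 270.0 and 214 TPM (-3.37), Myh11 at -2.60 and Myo5a at -2.46. Myl6, the essential light chain of nonmuscle myosin, stood higher in both YFP+ libraries, at 1658 and 2305 against 1002 and 650 TPM, and did not pass (1.28, SE 0.71, limma adjusted p = 0.126). Its difference was above 0 under each scaling.

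Of 9 membrane and adhesion linkers 2 fell, Rdx (radixin, -3.38) and Vcl (vinculin, -3.46). Vim, vimentin, an intermediate filament protein placed in this list, was its most abundant gene, at 678 and 739 against 629 and 1181 TPM, and overlapped. Serum response factor and its cofactors, whose targets include the actins, had 0 of 3 past the test. Mkl1 differed by -0.26 in the deposited values and by 1.46, 1.96 and 1.53 under the scalings in the order above. Across the network, 4 genes stood higher in both YFP+ libraries than in both YFP- libraries: Cotl1, Myl6, Myl12a and Rac2. Myl12a and Rac2 were named after their values were seen. The 4 genes are 3.28% of the 122, near the 2.50% of all tested genes. A further 87 (71.3%) stood lower without overlap, against 79.7% of all tested genes.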

How the data were processed

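Total RNA of 4 libraries, labelled as sorted liver macrophages, was sequenced, and groups were taken from the genotype label. Per the file headers, the authors deposited mean coverage, FPKM and TPM for each gene and library. The submitters' processing notes name HISAT and the builds GRCm38 and mm10. No source used here gives the abundance program, annotation, library kit or strandedness. Rows of one name were summed (166 names), and the 10 genes had 1 row each. Differences were fitted to log2(TPM + 1) with limma 3.58.1 (trend) in R 4.3.3 for the 12251 genes that reached 1 TPM in 2 or more libraries, with Benjamini-Hochberg adjustment at 0.05. For the YFP and the M against FM contrast in the deposited values, the estimated prior degrees of freedom were infinite. Each gene's variance was thus the value of the trend with level over all genes. The fit was tested on simulated data.

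The 10 genes and all gene lists were chosen with earlier results of these data known. Named network genes are all 7 other Arp2/3 subunits and, per list, the 3 of lowest adjusted p in each direction whose higher group averaged 5 TPM or more, plus the gene of highest mean. Of 225 list entries 223 were found, 6 by an older symbol. Genes alike in pattern are the 5 nearest with a mean of 100 TPM or more. Sequence copies were sought with blastn 2.17.0 in GENCODE M21 transcripts. Alternatives were another pseudocount (0.1), no filter, a filter at 5 TPM, 3 scalings, FPKM, the M or FM start as a block, and each library left out. The genes of 1 network list are counted in the totals but that list is not reported here.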

Additional observations from a re-analysis of the deposited data

Results flagged for a closer look

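For 3 of the 10 genes the difference between YFP+ and YFP- libraries had opposite signs in the M and the FM libraries. The difference between the M and FM values was not tested, since each pair has 1 library per group. For Tmsb10 the M libraries gave -1.99 and the FM libraries 0.65 on the log2 scale, -2.64 apart. Actg1 gave 0.62 and -0.047, 0.66 apart. Arpc3 gave 0.17 and -1.44, 1.62 apart.

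The same held for 6 named network genes, also untested. Among Arp2/3 subunits, Arpc4 gave 0.37 in M and -3.13 in FM libraries (3.50 apart) and Actr3 gave 0.33 and -2.31 (2.64 apart). Mkl1, the serum response factor cofactor, gave 1.05 and -1.56 (2.61 apart), and Coro1b 0.86 and -0.58 (1.44 apart). The distance was 0.93 for Capzb and 0.78 for Vim.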

How the results depend on the processing

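The direction of single genes depended on scaling more than on the pseudocount, the filter or the unit, none of which turned a direction of the 10 genes. Quantile normalization turned Actb (-0.25), Actg1 (-0.30), Cfl1 (-0.24), Arpc3 (1.36) and, among named network genes that fell in the deposited values, Tmsb15l (0.069). Median-ratio scaling turned Tmsb10 (1.63), Arpc3 (1.34), Coro1a (1.23) and, among named network genes that passed the test under it, Mkl1 (1.96). Loess turned Tmsb4x (-0.55), Actb (-0.80), Actg1 (-0.86), Cfl1 (-0.31) and Arpc3 (1.58). Some network genes that did not pass in the deposited values changed sign too. Actr2, Evl and Mkl1, at -0.96, -0.70 and -0.26 in the deposited values, were above 0 under each scaling. Median-ratio scaling also put Actr3 (1.30), Capzb (2.16) and Vim (2.02) above 0, among others. With 1 library left out, Tmsb10 ran from -1.65 to 0.31 (without YFP- M), Actg1 from -0.16 (without YFP- M) to 0.73 and Arpc3 from -1.47 to 0.20 (without YFP+ FM). The median of the 10 genes was 0.41, 0.025 under quantile normalization, 2.71 under median-ratio scaling, -0.43 under loess, 0.96 in FPKM and 0.42 to 0.57 with a library left out. The cause was not tested. Of the 29 network genes that fell and met the rule for naming, 26 lost the call with the direction kept under quantile normalization, 21 under median-ratio scaling and 27 under loess.

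Genes higher in YFP+ libraries numbered 64, and 148, 689 and 65 under the 3 scalings in the same order, 115 in FPKM and 12 to 71 with a library left out. Genes lower numbered 4834, and 205, 723 and 40 under the scalings, 3078 with a pseudocount of 0.1, 2902 with a filter at 5 TPM and 24 to 8280 with a library left out. Network genes higher were 0, 8 under median-ratio scaling and 0 with any library left out (0 to 0), and network genes lower were 51, then 2, 10 and 2 under the scalings and 0 to 71 with a library left out. With 1 library left in a group, that library was assumed to vary like the others. Genes called between M and FM numbered 6, with 40 without a filter, 1 at 5 TPM, 119, 114 and 12 under the scalings, 17 in FPKM and 0 without the YFP term; leaving out a library there leaves no residual degrees of freedom.

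The labels link same-start libraries only by the start of their names. Deviations of same-start libraries correlated at -0.01 across the 12251 tested genes, while 6 genes were called between M and FM. A value over all genes does not show whether such libraries share an origin, and this was not tested. With the start as a block, 23 genes were called higher, 1726 lower and 13 network genes lower. Read counts are unknown, so the precision of low values such as Arpc3 cannot be given. Mean coverage per unit of FPKM, which rises with depth, was read at Actb. It was 4.81 and 2.60 in the YFP+ M and FM libraries and 9.19 and 2.59 in the YFP- M and FM libraries. The part of depth in low values and in the number of genes at 1 TPM or more was not tested.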
